A study of Mus musculus with 8 samples.

Results

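The transforming growth factor beta (TGF-beta) and activin pathway was followed through 10 genes in the liver of mice with diet-induced steatohepatitis: the ligands Tgfb1, Tgfb2, Tgfb3, Inhba, Inhbc and Inhbe, the receptors Tgfbr1 and Tgfbr2, and the early targets Tgfbi and Smad7. They were taken by symbol from the 52110 named rows of the deposited expression table, and all 10 were found. All 8 libraries came from liver of wild-type mice on CDAHFD, a high-fat diet with defined amino acids and without choline, which gives a fatty, inflamed and scarred liver. In the ctr_hEV group (4 libraries) the mice had been given, through a vein, circulating extracellular vesicles of human volunteers who underwent a sham procedure, and in the RIC_hEV group (4 libraries) the volunteers had undergone remote limb ischemic conditioning, in which blood flow to a limb is briefly interrupted. The comparison asks how the pathway's transcripts differ in liver between both kinds of human vesicle. No library on another diet, without vesicles or with mouse vesicles was analysed here, and the sources used here do not give strain, sex, age, dose or time. The labels do not say whether each library is a separate mouse, so p-values measure the spread between these 8 libraries.

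TGF-beta and activin ligands are secreted dimers. They bind a type II receptor kinase (Tgfbr2 for TGF-beta), which activates a type I receptor (Tgfbr1, also called ALK5, for TGF-beta), and the type I receptor phosphorylates SMAD2 and SMAD3, which enter the nucleus with SMAD4. TGF-beta is stored in the matrix in a latent form, and in injured liver it is known as the main signal that turns hepatic stellate cells into collagen-producing myofibroblasts. Inhbc and Inhbe encode the beta C and beta E subunits, the activins made mainly by hepatocytes, whereas Inhba encodes the beta A subunit of activin A.

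Levels are in FPKM, fragment counts scaled to transcript length and to the size of the library. The libraries fit their tissue label, with summed FPKM of 6 hepatocyte markers between 24660 and 37040. ctr_hEV 1 and ctr_hEV 3 stood apart from the other 6 libraries in markers of several non-parenchymal cells, so results that turned on them are also given without them. The summed level of 6 stellate cell markers was 48.3 and 41.4 FPKM in ctr_hEV 1 and 3, against 25.8 to 29.7 in the other 6 libraries. That of 7 macrophage and monocyte markers was 316 and 239, against 131 to 193. That of 4 cholangiocyte markers was 16.9 and 9.78, against 2.88 to 3.81. Fewer cells of a type and less RNA per cell cannot be told apart in bulk tissue.

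None of the 10 genes passed the threshold, and in none did the groups separate. Of the 8 that entered the fit across all 11274 genes with a mean of at least 1 FPKM, 0 had a limma adjusted p under 0.05, where 0.0355% of all tested genes did. Tgfbr1 and Smad7 were lower in RIC_hEV at an unadjusted p under 0.05 (2 of 8), a class that held 11.3% of tested genes, and 0 of 8 were higher at that level, where 2.63% of tested genes were. With each library centred on its median gene, Tgfbr1 was lower and Inhbc higher at that level, and over all tested genes 918 were higher and 438 lower, against 297 and 1279 as fitted. The groups overlapped in all 10 genes, whereas among tested genes 4.56% lay wholly lower and 1.31% wholly higher in RIC_hEV. Mean FPKM was lower in RIC_hEV for 9 of the 10, all but Inhbc, the beta C activin subunit. The median log2 change, RIC_hEV minus ctr_hEV, was -0.27 over the 8 genes and -0.11 over all tested genes, and 73.0% of tested genes were lower as fitted. Changes of single genes are therefore given relative to that median, on the log2(FPKM + 1) scale, with the SE and p of the fitted change.

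**Figure D1:**
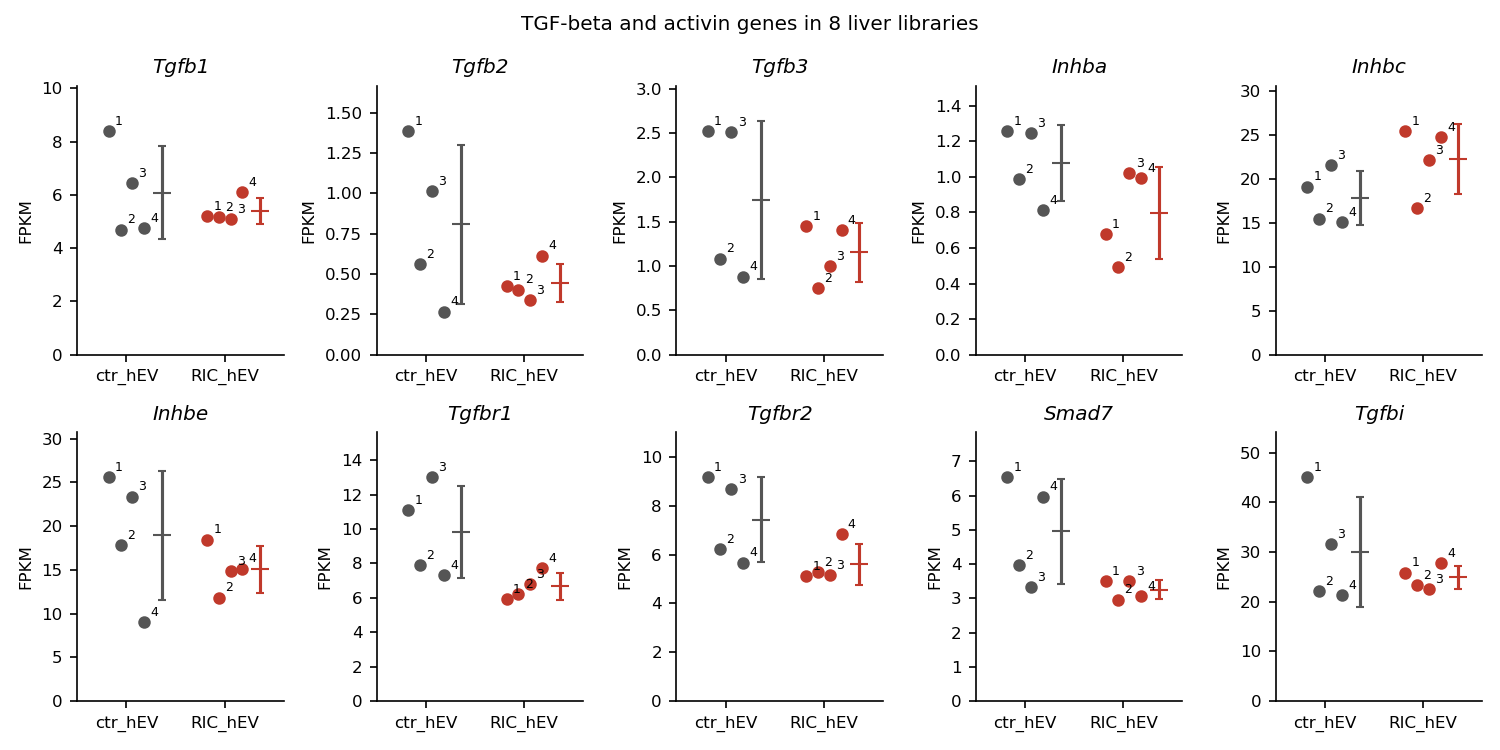
FPKM of each of the 10 genes (vertical axes, linear from 0) in the 4 ctr_hEV (grey) and 4 RIC_hEV (red) libraries; small digits are replicate numbers and bars are mean ± SD. The groups overlap in every panel, ctr_hEV 1 and 3 are the highest pair in 8 of the 10 panels, and Inhbc is the one gene with a higher mean in RIC_hEV.

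In order of mean level over the 8 libraries, Tgfbi (27.4 FPKM), Inhbc (20.1) and Inhbe (17.0) came first. Tgfbr1 (8.24), Tgfbr2 (6.52), Tgfb1 (5.73) and Smad7 (4.11) followed, and Tgfb3 (1.45), Inhba (0.937) and Tgfb2 (0.627) were lowest. Only the steps from Inhbe to Tgfbr1 and from Smad7 to Tgfb3 were larger than the summed SD of both neighbours over the 8 libraries. Inhbc lay above Inhbe in 5 of 8 libraries, while Tgfbi lay above Inhbc and Tgfbr1 above Tgfbr2 in all 8. The spread also differed between genes. Tgfb2 varied 5.22-fold from its lowest to its highest library and Tgfb3 3.37-fold, against 1.69-fold for Inhbc and 1.79-fold for both Tgfb1 and Tgfbr2. The SD was larger in ctr_hEV for 8 of the 10 genes, as it was for 66.7% of all tested genes.

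Tgfb1, on mouse chromosome 7 (25687002 to 25705077, plus strand, mm10), encodes the TGF-beta isoform most tied to liver fibrosis. Its level was 8.41, 4.69, 6.44 and 4.76 FPKM in ctr_hEV 1 to 4 and 5.21, 5.15, 5.09 and 6.11 in RIC_hEV 1 to 4. ctr_hEV 1 was highest and ctr_hEV 2 lowest, so the controls enclosed every RIC_hEV library. The means were 6.08 ± 1.75 and 5.39 ± 0.484 (SD, n = 4 per group), and the relative log2 change was -0.01 (SE 0.16, limma adjusted p = 0.706). The fitted change itself was -0.12 and turned to 0.02 with each library centred on its median gene.

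Tgfb3, on chromosome 12 (86056745 to 86079041, minus strand), encodes a second isoform. It stood at 2.53, 1.08, 2.51 and 0.879 FPKM in ctr_hEV 1 to 4 and at 1.45, 0.750, 0.999 and 1.41 in RIC_hEV 1 to 4. The 4 control libraries formed 2 levels, with ctr_hEV 1 and 3 about equal and above all others. The relative log2 change was -0.20 (SE 0.22, limma adjusted p = 0.488), and 0.14 without ctr_hEV 1 and 3. Tgfb3 overlaps Ttll5 on the opposite strand, and without a stated strand setting reads of the overlap cannot be assigned.

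Tgfb2, on chromosome 1 (186622792 to 186705989, minus strand), was below the filter. Its level was 1.39, 0.562, 1.02 and 0.266 FPKM in ctr_hEV 1 to 4 and 0.424, 0.404, 0.338 and 0.614 in RIC_hEV 1 to 4, which rests on an estimated 39 to 222 fragments per library. The lowest and the highest library were both controls. The difference of the means, -0.363 FPKM, was smaller than the control SD of 0.495 and did not pass a two-sided exact permutation test (p = 0.257, n = 4 per group, where 0.0286 is the smallest p possible). Without ctr_hEV 1 and 3 it was 0.0309 FPKM. Tgfb2 also overlaps an antisense gene, Gm29491.

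Tgfb1 supplied most TGF-beta transcript in every library. Its share of the summed FPKM of the 3 isoforms was 68.2%, 74.0%, 64.6% and 80.6% in ctr_hEV 1 to 4 and 73.5%, 81.7%, 79.2% and 75.1% in RIC_hEV 1 to 4. The sum was 12.3 and 9.97 FPKM in ctr_hEV 1 and 3, against 5.91 to 8.13 in the other 6 libraries. In the 2 libraries with the highest sum, Tgfb2 and Tgfb3 thus took a larger part of it than in ctr_hEV 2 and 4.

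The activin subunits did not differ in 1 direction. Inhbc and Inhbe lie next to each other on the minus strand of chromosome 10, at 127356322 to 127370431 and 127348857 to 127354411. Both overlap an antisense gene, Gm47200. Their start regions are shown because these neighbours, both made by hepatocytes, had mean differences of opposite sign between the groups. The sequences are from RefSeq (GRCm38.p6), 5′ to 3′ on the minus strand. For Inhbc the 250 bases before the RefSeq start are printed (chr10:127370549-127370798). For Inhbe a stretch of 30 bases is printed (chr10:127352011-127352040) that holds the letters TTGCATCA, which begin 181 bases before the RefSeq start and lie inside the longer GENCODE model of the gene. Capitals mark TTGCATCA, the composite C/EBP-ATF element, in Inhbe and CAGACA, the core of the CAGA element bound by SMAD3, in Inhbc.
Inhbe: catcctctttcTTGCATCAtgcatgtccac
Inhbc: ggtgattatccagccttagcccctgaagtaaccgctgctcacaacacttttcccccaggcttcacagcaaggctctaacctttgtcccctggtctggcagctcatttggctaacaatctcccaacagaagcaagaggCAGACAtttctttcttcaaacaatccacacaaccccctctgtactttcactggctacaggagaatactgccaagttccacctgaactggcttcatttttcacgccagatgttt

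On either strand, TTGCATCA is in 0.895% of all 32851 RefSeq start windows of 250 bases before to 50 after a start, and CAGACA in 21.04%. Of the 8 genes with a window, Inhbe alone held TTGCATCA, while CAGACA was in windows of Inhbc, Tgfb2 and Tgfbr1. Tgfb3 and Smad7 had no such window, so neither was searched for any motif. The palindromic SMAD element GTCTAGAC (0.213% of all windows) and the AP-1 element TGAGTCA (5.20%) were in no window of the other 8 genes. A match of letters is a description of the window, not a site of binding.

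Inhbc stood at 19.1, 15.5, 21.6 and 15.1 FPKM in ctr_hEV 1 to 4 and at 25.5, 16.7, 22.1 and 24.8 in RIC_hEV 1 to 4. RIC_hEV 1, 3 and 4 lay above all controls, and RIC_hEV 2 lay among them. The means were 17.8 ± 3.11 and 22.3 ± 3.99 (SD, n = 4 per group). The relative log2 change of 0.41 did not pass (SE 0.16 for the fitted change of 0.30, limma adjusted p = 0.390). It lay between 0.28 and 0.54 over the 17 alternatives and was 0.53 without ctr_hEV 1 and 3, the one positive change among the 8 genes that kept its sign throughout.

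Inhbe stood at 25.6, 17.8, 23.4 and 9.002 FPKM in ctr_hEV 1 to 4 and at 18.4, 11.8, 14.9 and 15.1 in RIC_hEV 1 to 4. The controls held both the highest 2 libraries and the lowest, ctr_hEV 4. The relative log2 change was -0.12 (SE 0.27, limma adjusted p = 0.661). It was -0.38 without ctr_hEV 4 (limma adjusted p = 0.0912), 0.0030 without ctr_hEV 1 alone and -0.0069 without ctr_hEV 3 alone. Without both ctr_hEV 1 and 3 it was 0.24, so its direction rested on those libraries.

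Within a library, the Inhbe share of the summed FPKM of Inhbe and Inhbc does not change with the scaling of that library, although its absolute value depends on the gene lengths the authors used. It was 57.2%, 53.5%, 52.0% and 37.4% in ctr_hEV 1 to 4 and 42.0%, 41.4%, 40.2% and 37.9% in RIC_hEV 1 to 4. The RIC_hEV libraries were close together, 3 controls lay above them, and ctr_hEV 4 lay below them. The difference of -9.63 percentage points did not pass a two-sided exact permutation test (p = 0.143, n = 4 per group; SD 8.69 in ctr_hEV and 1.80 in RIC_hEV). It was -13.8 points without ctr_hEV 4 and -5.05 without ctr_hEV 1 and 3. Without ctr_hEV 4 the exact permutation p was 0.0571, the smallest possible with 3 controls, so that test could not pass. The sum of both subunits was 36.8 ± 10.1 and 37.3 ± 6.54 FPKM.

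**Figure D2:**
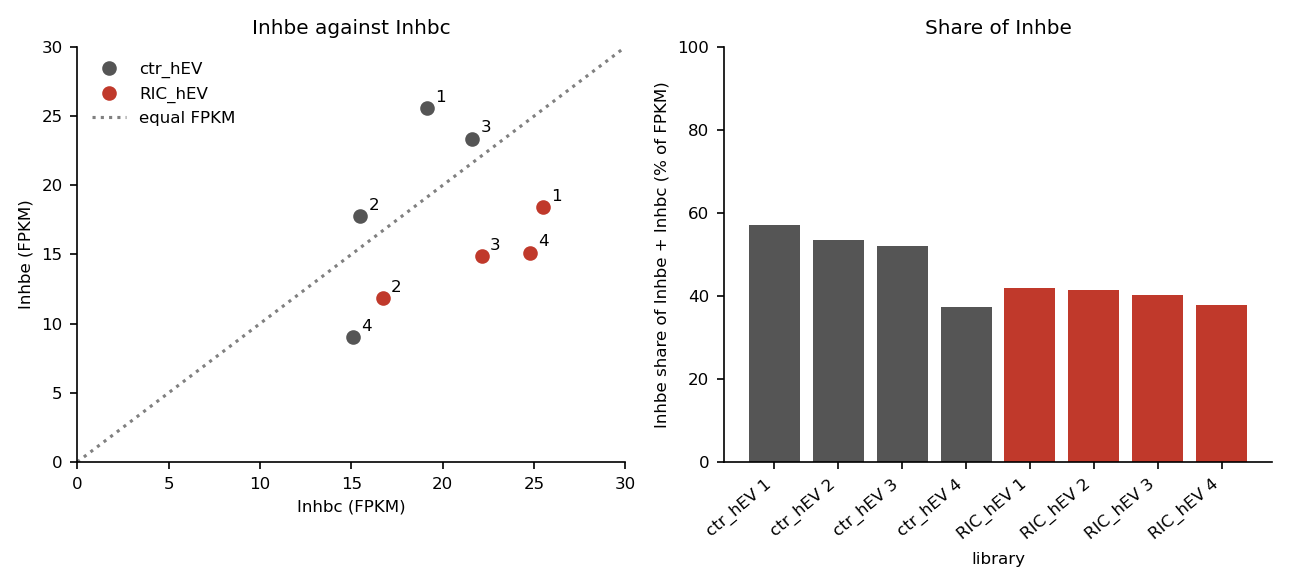
Left, Inhbe against Inhbc in FPKM for each library (grey ctr_hEV, red RIC_hEV, digits are replicate numbers), with a dotted line at equal FPKM. Right, Inhbe as a percentage of the summed FPKM of both genes per library. ctr_hEV 1 to 3 lie above the line of equal FPKM, at 52.0% to 57.2%, and ctr_hEV 4 lies with the RIC_hEV libraries at 37.4%.

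Inhba, the activin A subunit (chromosome 13, 16011851 to 16031621, plus strand), was below the filter. It stood at 1.26, 0.989, 1.25 and 0.814 FPKM in ctr_hEV 1 to 4 and at 0.677, 0.491, 1.02 and 0.995 in RIC_hEV 1 to 4, an estimated 63 to 222 fragments per library. ctr_hEV 1 and 3 were highest and RIC_hEV 1 and 2 lowest. The difference of the means, -0.280 FPKM, did not pass a two-sided exact permutation test (p = 0.171, n = 4 per group).

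Both TGF-beta receptors were lower on average in RIC_hEV. The 250 bases before a RefSeq start of each are printed, as in both ctr_hEV 1 and 3 were the highest libraries. That pattern is not particular to the receptors: it was found in 8 of the 10 genes and in 3383 of the 11274 tested genes. The stretches are Tgfbr1 at chr4:47352972-47353221 on the plus strand (the first of its 2 RefSeq starts), and Tgfbr2 at chr9:116175364-116175613 on the minus strand. Both are GRCm38.p6 and read 5′ to 3′ along the gene. None of the 4 motifs searched is in either stretch, so no letters are in capitals. The CAGACA given above for Tgfbr1 is in the stretch before its other RefSeq start, which is not printed.
Tgfbr1: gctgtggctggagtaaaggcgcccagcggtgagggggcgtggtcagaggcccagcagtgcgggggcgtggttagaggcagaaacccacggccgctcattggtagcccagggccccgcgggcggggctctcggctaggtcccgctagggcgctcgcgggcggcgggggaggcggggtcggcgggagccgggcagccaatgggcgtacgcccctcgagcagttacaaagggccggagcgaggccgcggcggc
Tgfbr2: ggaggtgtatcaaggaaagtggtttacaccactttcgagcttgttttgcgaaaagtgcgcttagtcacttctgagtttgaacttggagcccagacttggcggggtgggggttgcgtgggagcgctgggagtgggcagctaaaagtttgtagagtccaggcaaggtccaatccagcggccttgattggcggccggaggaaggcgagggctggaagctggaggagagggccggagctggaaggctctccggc

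The printed Tgfbr1 stretch is rich in CG pairs, with 29 against a median of 6 over all such stretches (interquartile range 2 to 16). Tgfbr2, with 12, lies within that range. So does the stretch before the other Tgfbr1 start, with 3 CG pairs and 52.8% G or C. Inhbc, printed above, has 2 CG pairs and is 48.8% G or C, against 74.8% in the printed Tgfbr1 stretch and 58.4% in Tgfbr2. Tgfb1 is like the printed Tgfbr1 stretch in this, with 21 CG pairs and 75.2% G or C.

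Tgfbr1 (chromosome 4, 47353222 to 47414931, plus strand), the type I receptor kinase, stood at 11.1, 7.90, 13.0 and 7.30 FPKM in ctr_hEV 1 to 4 and at 5.92, 6.23, 6.78 and 7.71 in RIC_hEV 1 to 4. The groups overlapped through 1 library each: RIC_hEV 4 lay above ctr_hEV 4. The means were 9.83 ± 2.70 and 6.66 ± 0.786 (SD, n = 4 per group), and the relative log2 change of -0.36 did not pass (SE 0.17, limma adjusted p = 0.353). It was -0.14 without ctr_hEV 1 and 3, and lay between -0.24 and -0.44 with any 1 library left out.

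Tgfbr2 (chromosome 9, 116084293 to 116175360, minus strand), the type II receptor that binds the ligand, stood at 9.16, 6.22, 8.68 and 5.67 FPKM in ctr_hEV 1 to 4 and at 5.12, 5.29, 5.15 and 6.84 in RIC_hEV 1 to 4. RIC_hEV 1 to 3 lay below every control and RIC_hEV 4 above ctr_hEV 2 and 4. The relative log2 change was -0.23 (SE 0.16, limma adjusted p = 0.359) and -0.05 without ctr_hEV 1 and 3. The ratio of Tgfbr2 to Tgfbr1, both per length, was 0.764 ± 0.0678 in ctr_hEV and 0.840 ± 0.0561 in RIC_hEV (SD, n = 4 per group), a difference close to the spread of either group.

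**Figure D3:**
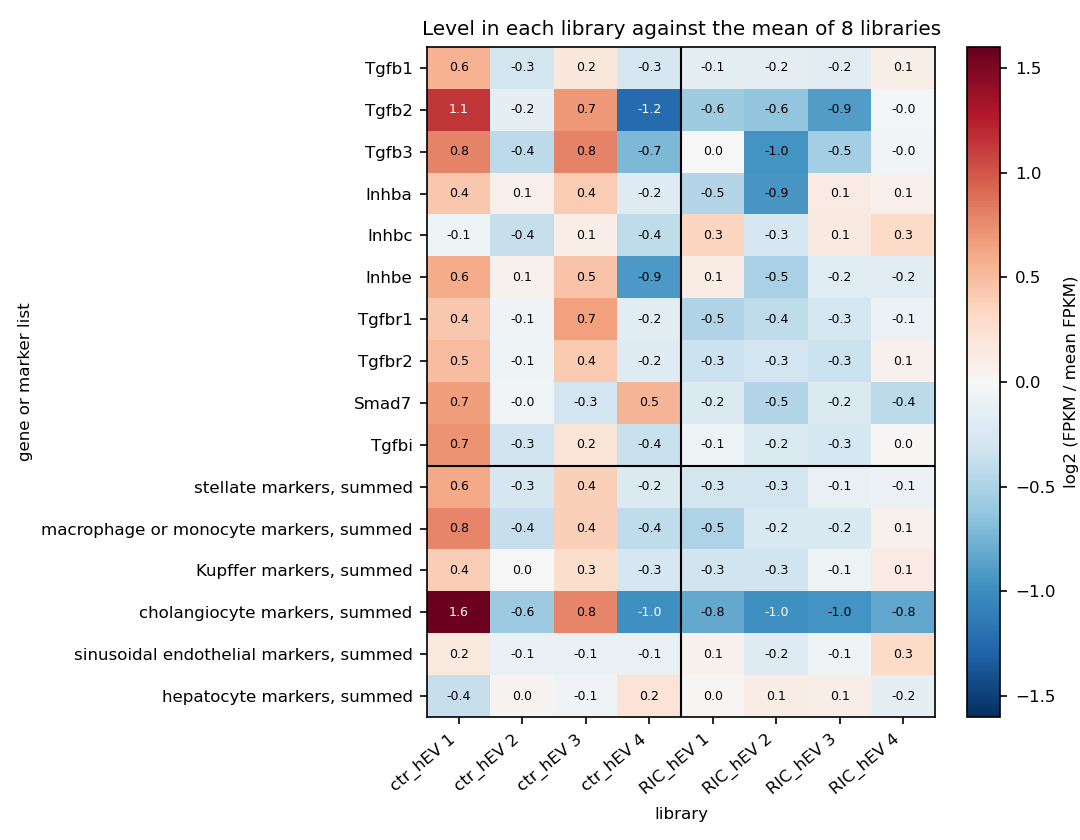
Log2 of the FPKM in each library over the mean of the 8 libraries, for the 10 genes and, under the line, for summed marker lists of 6 cell types; red is above and blue below the mean. ctr_hEV 1 and ctr_hEV 3 are red for 8 of the genes and for stellate, macrophage, Kupffer and cholangiocyte markers, while Smad7 is high in ctr_hEV 1 and 4 and Inhbc in RIC_hEV 1 and 4.

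The 2 target genes differed in which control libraries were high. Tgfbi (chromosome 13, 56609523 to 56639562, plus strand) encodes a secreted matrix protein named for its induction by TGF-beta. It stood at 45.0, 22.1, 31.5 and 21.4 FPKM in ctr_hEV 1 to 4 and at 25.8, 23.4, 22.5 and 27.8 in RIC_hEV 1 to 4. ctr_hEV 2 and 4 lay below all RIC_hEV libraries and ctr_hEV 1 and 3 above them. The relative log2 change of -0.09 (SE 0.21, limma adjusted p = 0.619) became 0.21 without ctr_hEV 1 and 3, and 0.08 without ctr_hEV 1 alone.

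Smad7 (chromosome 18, 75367529 to 75395935, plus strand) encodes the inhibitory SMAD that TGF-beta induces and that acts on the activated type I receptor. It stood at 6.54, 3.97, 3.33 and 5.97 FPKM in ctr_hEV 1 to 4 and at 3.49, 2.96, 3.51 and 3.07 in RIC_hEV 1 to 4. Here ctr_hEV 1 and 4 were high and ctr_hEV 3 lay among the RIC_hEV libraries, unlike in the 8 genes above whose highest pair was ctr_hEV 1 and 3. The means were 4.95 ± 1.54 and 3.26 ± 0.285 (SD, n = 4 per group). The relative log2 change of -0.34 did not pass (SE 0.17, limma adjusted p = 0.354). It was -0.44 without ctr_hEV 1 and 3, -0.21 without ctr_hEV 4, and -0.11 with estimated library weights.

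**Figure D4:**
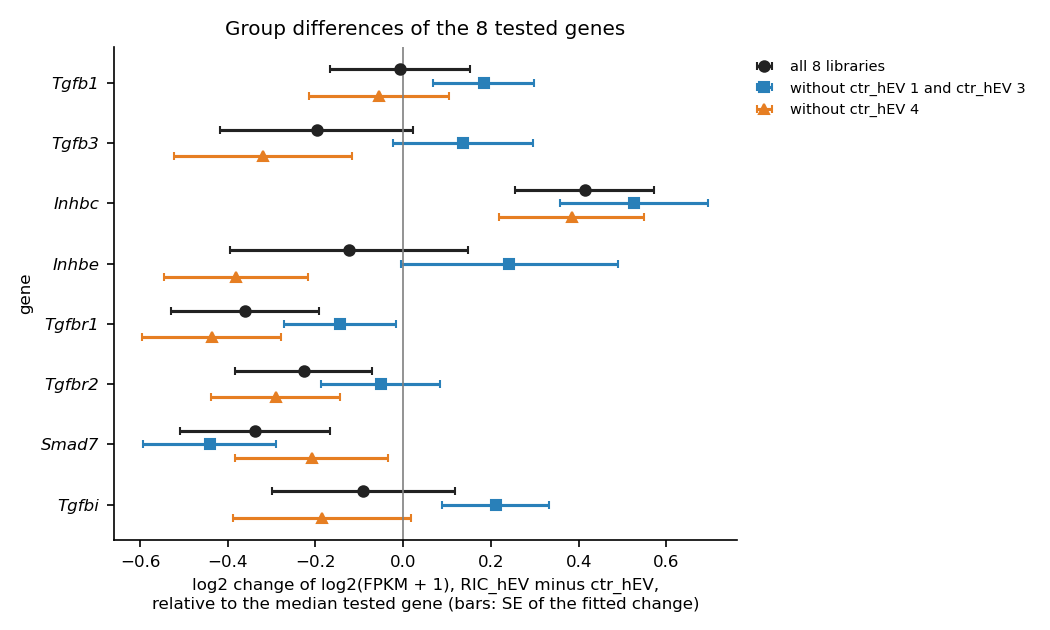
Relative log2 change of the 8 tested genes (horizontal axis, RIC_hEV minus ctr_hEV; bars are the SE of the fitted change) with all libraries, without ctr_hEV 1 and 3, and without ctr_hEV 4. Tgfb1, Tgfb3, Inhbe and Tgfbi lie above 0 without ctr_hEV 1 and 3 and below 0 with all libraries, while Tgfbr1, Tgfbr2 and Smad7 stay below 0 and Inhbc above 0.

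In 8 of the 10 genes ctr_hEV 1 and ctr_hEV 3 were the 2 highest libraries, a pattern found in 3383 of the 11274 tested genes. Without both, 5 of the 8 tested members were higher in RIC_hEV as fitted and 3 lower, against 1 and 7 with all libraries. None of the members passed in either fit. Over all tested genes, 3042 were higher and 8232 lower with all libraries, against 4815 and 6459 without ctr_hEV 1 and 3. The marker lists given at the start move in the same libraries. Kupffer cell markers summed to 510 and 472 FPKM in ctr_hEV 1 and 3 against 311 to 424 in the other 6 libraries, sinusoidal endothelial markers to 99.9 and 83.4 against 78.2 to 111, and hepatocyte markers to 24660 and 30710 against 28690 to 37040. All 6 stellate markers and 6 of 7 macrophage and monocyte markers were above 1 FPKM on average, and no defining marker of either list was at 0. Erythroid markers summed to 367 and 213 FPKM in ctr_hEV 1 and 3 against 54.0 to 114 in the other 6 libraries. Of the other lists, B and plasma cell markers were 12.3 to 24.2 FPKM in ctr_hEV and 40.7 to 53.2 in RIC_hEV, without overlap. The sum of 2 smooth muscle markers, at 0.878 to 1.66 and 0.489 to 0.822, did not overlap either. Neither of these 2 markers averaged 1 FPKM, so neither was tested. Neutrophil markers, at 12.8 to 68.3 and 6.62 to 15.2, overlapped between groups, as did portal fibroblast, platelet, T or NK and pancreatic markers. The part of cell composition in the levels of the 10 genes was not tested.

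For each tested gene, the genes of most like pattern were taken as those with the highest Pearson r of log2(FPKM + 1) over the 8 libraries. For Tgfb1 these were Parva (r = 0.993), Timp2 (0.991) and Psap (0.988), and for Tgfbi they were Qpctl (0.995), Col6a1 (0.992), a collagen VI chain, and Tcf21 (0.992), a transcription factor of stellate cells. For Tgfbr2 they were Slc25a36 (0.995), Prkx (0.993) and Rragd (0.991), and for Tgfbr1 Mapkapk3 (0.984) led. For Inhbe the closest was Puf60 (0.993), for Inhbc it was Dpy19l1 (0.979), for Tgfb3 it was Mapre2 (0.993), and for Smad7 it was Slc23a2 (0.916), the lowest of the 8 leading values. These r are the highest over all tested genes, from 8 libraries that share the high controls, and are descriptions only.

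The rest of the pathway was described with 6 lists that exclude the 10 genes. Counts of lower and higher genes per list are relative to the median tested gene, which lies at 0 on that scale. Of 97 listed genes 75 were tested, 0 passed over all genes (lowest limma adjusted p = 0.332), and 16 were lower and 0 higher in RIC_hEV at an unadjusted p under 0.05, classes that held 11.3% and 2.63% of all tested genes. With median centring these counts were 5 lower and 4 higher, where 438 and 918 of all 11274 tested genes were. Without ctr_hEV 1 and 3 they were 5 lower and 2 higher, where 369 and 218 of all 11274 tested genes were. The groups separated in 6 of the 75, all lower, where 4.56% of all tested genes separated lower and 1.31% higher. Among the 6 were Bmpr1a, Smad1, Smurf2, Id2 and Zfyve9, which encodes the SMAD anchor SARA and was named after its values were seen.

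Genes that store, activate or bind latent TGF-beta had 14 tested members, 11 lower and 3 higher, with a median relative log2 change of -0.09. The 4 most abundant were the integrin subunits Itgb1 (74.8 ± 7.91 FPKM in ctr_hEV and 61.8 ± 6.76 in RIC_hEV) and Itgb5 (28.8 ± 7.72 and 25.3 ± 2.35), and the proteoglycans Dcn (73.5 ± 9.35 and 64.4 ± 9.62) and Bgn (32.2 ± 12.2 and 28.6 ± 5.91). The groups overlapped in each of these 4. Mmp14, a protease that releases latent TGF-beta, was named after its values were seen: its relative log2 change of -0.37 did not pass and its groups overlapped (SE 0.20, limma adjusted p = 0.354). Without ctr_hEV 4 it was -0.53 (limma adjusted p = 0.0463), in a fit where 176 of all 11274 tested genes passed. The change of Mmp14 was -0.14 without ctr_hEV 1 and 3.

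Other receptors had 9 tested members, 5 lower and 4 higher, with a median of -0.09. Bmpr1a, a type I receptor of bone morphogenetic proteins (BMP), stood at 7.37, 8.17, 8.21 and 7.08 FPKM in ctr_hEV 1 to 4 and at 5.11, 4.97, 6.06 and 6.49 in RIC_hEV 1 to 4. All RIC_hEV libraries lay below all controls, and the high pair was not ctr_hEV 1 and 3. Its relative log2 change of -0.28 did not pass (SE 0.11, limma adjusted p = 0.332). The activin receptors Acvr1b (4.78 ± 1.179 and 3.28 ± 0.677 FPKM) and Acvr2a (3.20 ± 0.362 and 3.13 ± 0.546), of type I and type II, and the endothelial coreceptor Eng (13.1 ± 2.23 and 15.0 ± 2.67) overlapped between groups.

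Among the other activin genes only Inhbb and Fst were tested. Inhbb, the activin beta B subunit, was at 4.74 ± 0.649 and 5.47 ± 1.15 FPKM, and Fst, the activin-binding antagonist follistatin, at 2.79 ± 1.34 and 1.75 ± 0.259. Fstl3, a second activin antagonist, was at 0.540 ± 0.350 FPKM in ctr_hEV and at 0.305, 0.201, 0.304 and 0 in RIC_hEV 1 to 4, and Nodal at 0.315 ± 0.114 and 0.255 ± 0.168.

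SMAD genes and their regulators had 20 tested members, 15 lower and 5 higher, with a median of -0.11. Smad1, which carries BMP signals, stood at 2.79, 2.52, 2.51 and 1.95 FPKM in ctr_hEV 1 to 4 and between 1.84 and 1.89 in RIC_hEV, a relative log2 change of -0.15 (SE 0.10, limma adjusted p = 0.354). Smurf2, a ubiquitin ligase that SMAD7 recruits to the TGF-beta receptor, was at 10.5 ± 0.477 and 8.74 ± 0.401, a relative change of -0.13. The shared SMAD, Smad4, was at 11.2 ± 1.96 and 9.83 ± 1.32, the ubiquitin ligase Wwp1 at 13.1 ± 1.16 and 11.0 ± 0.946, and the phosphatase Ppm1a at 12.1 ± 3.51 and 11.0 ± 3.08.

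Genes known to be induced by TGF-beta had 18 tested members, 15 lower and 3 higher, and the lowest list median, -0.23. Ctgf, also called Ccn2, averaged 27.0 ± 16.3 FPKM in the controls and 16.8 ± 4.29 in RIC_hEV, the collagen Col3a1 at 34.9 ± 27.1 and 19.4 ± 4.43, fibronectin Fn1 at 76.9 ± 6.62 and 70.8 ± 7.12, and the transcription factor Bhlhe40 at 21.5 ± 2.61 and 17.9 ± 1.81. Without ctr_hEV 1 and 3 the relative changes of Ctgf and Col3a1 were 0.26 and 0.40.

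The BMP arm, which controls hepcidin and iron, had 12 tested members, 5 lower and 7 higher, and the one list median above 0 among the lists with more than 2 tested genes, 0.06. Id2, an inhibitor of helix-loop-helix factors, stood at 78.6, 79.2, 63.3 and 60.1 FPKM in ctr_hEV 1 to 4 and at 41.3, 54.5, 53.5 and 42.1 in RIC_hEV 1 to 4. All controls lay above all RIC_hEV libraries, and its relative log2 change of -0.44 did not pass (SE 0.14, limma adjusted p = 0.332). Hamp, which encodes hepcidin, stood at 1099, 1373, 924 and 1408 FPKM in ctr_hEV 1 to 4 and at 667, 1496, 628 and 388 in RIC_hEV 1 to 4. RIC_hEV 1, 3 and 4 lay below all controls and RIC_hEV 2 above them. The relative log2 change of Hamp, -0.64, did not pass (SE 0.33, limma adjusted p = 0.355). Id3 was at 44.2 ± 9.86 and 37.0 ± 7.89, and Hfe2, the BMP coreceptor hemojuvelin, at 40.3 ± 4.71 and 39.4 ± 4.90.

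**Figure D5:**
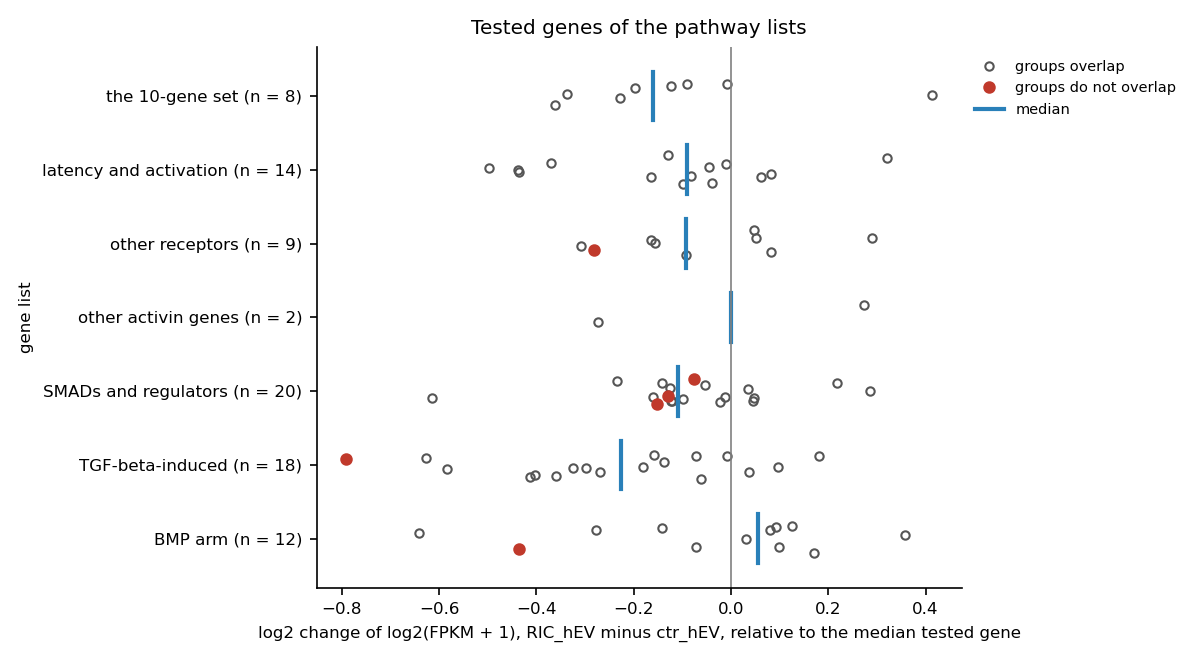
Relative log2 change (RIC_hEV minus ctr_hEV) of each tested gene in the 10-gene set and in the 6 pathway lists; filled red points are genes whose groups do not overlap, open points overlap, and blue bars are list medians. Medians lie between -0.23 for TGF-beta-induced genes and 0.06 for the BMP arm, and the 6 red points all lie below 0; of all tested genes, 4.56% separated lower and 1.31% higher.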

How the data were processed

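RNA for the 8 liver libraries was extracted with Trizol and prepared with a VAHTS kit, per the labels. For the authors' steps, the mm10 build, HISAT2 2.2.1, HTSeq 0.13.5, Trimmomatic 0.38, FastQC 0.11.9, DESeq2 1.18.1 and R 3.4.1 are listed in the submitters' processing notes. The authors deposited FPKM values, 1 column per library; the sources used here do not give the FPKM program, annotation, gene lengths or strand setting, and levels of different genes rest on those lengths. Of 55335 rows, 3225 without a gene name (0.176% to 0.207% of FPKM) were left out of the tests. Rows whose symbol was turned into a date (26) were kept unnamed, and for 78 symbols on several rows the row with the higher mean was used. No 2 libraries were identical.

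Values were transformed to log2(FPKM + 1), with a pseudocount of 1. Genes with a mean of at least 1 FPKM were tested by linear models with a mean-variance trend (two-sided; R 4.3.3, limma 3.58.1) and adjusted by Benjamini-Hochberg over 11274 genes and a threshold of 0.05; the fit was tested on simulated data. A change on this scale understates that of low genes. Genes below the filter were compared by exact permutation of FPKM (SciPy 1.17.1). Depth, estimated from the step size of low values, was 19.3 to 28.8 M fragments. Fragments per gene were estimated with GENCODE M21 exon lengths; 14.5% to 15.6% of low values lay within 0.02 of a whole step, so no count test was run. Same-numbered libraries did not deviate together (r of -0.227 to 0.120), so the numbers were not taken as pairs.

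The 10 genes and the lists were chosen with earlier results of these data known. Of the lists, the text names the 4 genes of highest mean level and those at an unadjusted p under 0.05 whose groups do not overlap. Mmp14 and Zfyve9 were named outside this rule, after their values were seen. The values of 1 listed gene are not reported here. Alternatives were another pseudocount, 2 other filters, 3 scalings, library weights, a replicate block, and libraries left out.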

Additional observations from a re-analysis of the deposited data

Results flagged for a closer look

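In 74 groups of 4 values (the 10 genes, the Inhbe share and the named pathway genes), 3 values stood far from the other 3 of their group. Chance gives about 1 in 20 groups, so 3 of 74 is no more than chance gives. Tgfb1 was 6.11 FPKM in RIC_hEV 4, against 5.09 to 5.21 in the other RIC_hEV libraries. Tgfbr2 was 6.84 FPKM in RIC_hEV 4, against 5.12 to 5.29. Ppm1a, a SMAD phosphatase, was 6.42 FPKM in RIC_hEV 3, against 12.2 to 12.9, and was at 7.05 in ctr_hEV 2.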

How the results depend on the processing

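None of the 8 tested genes of the set passed under any of the 17 alternatives (lowest limma adjusted p = 0.0624, Tgfbr1 with library weights); Tgfbr1, Tgfbr2, Smad7 and Inhbc kept their direction in all of them. The count over all tested genes, 4, became 2 without a filter, 15 with library weights, 8 without ctr_hEV 1 and 3, and 1 to 176 with 1 library left out (highest without ctr_hEV 4); the count over pathway lists, 0, became 0 to 2. With per-library median centring, 918 genes were higher and 438 lower at an unadjusted p under 0.05, against 297 and 1279, and with quantile normalization 605 and 607. Without ctr_hEV 1 and 3 the relative log2 change turned to 0.18 for Tgfb1, 0.14 for Tgfb3, 0.21 for Tgfbi, 0.24 for Inhbe, 0.18 for Itgb5, 0.31 for Bgn, -0.052 for Acvr2a, 0.023 for Smad4, 0.19 for Ppm1a, 0.26 for Ctgf and 0.40 for Col3a1, and the Tgfb2 difference to 0.0309 FPKM. With a pseudocount of 0.1 it turned to 0.0025 for Tgfb1, 0.012 for Bgn, 0.0020 for Ppm1a and 0.015 for Fn1. With quantile normalization it turned to 0.013 for Tgfb1 and -0.0089 for Hfe2, without a filter to -0.0040 for Acvr2a and -0.0059 for Hfe2, and with library weights to 0.017 for Fn1 and 0.034 for Id3. With 1 library left out the change crossed 0 for Tgfb1 (-0.095 to 0.095), Tgfbi (-0.20 to 0.076), Inhbe (-0.38 to 0.0030), Itgb5 (-0.12 to 0.067), Dcn (-0.13 to 0.0075), Bgn (-0.13 to 0.16), Acvr2a (-0.0044 to 0.16), Smad4 (-0.14 to 0.013), Ppm1a (-0.22 to 0.21) and Fn1 (-0.084 to 0.040). The cause was not tested. With the replicate block, 0 genes of the set, 0 of the lists and 3 of all tested genes passed, and the Inhbe share kept its difference of -9.63 percentage points (exact permutation within pairs, p = 0.250, smallest possible 0.125). Few fragments limit Tgfb2 and Inhba.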
